A study of Mus musculus with 20 samples.

Results

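Complement genes of the mouse retina were followed through 20 retinal RNA libraries. The 9 genes were taken by name from a list of complement components and regulators, out of 35006 genes in each count file: C1qa, C1qb, C1qc, C2, C3, C4b, Cfb, Cfi and Serping1. The rule for the choice did not use their measured values, but earlier results of these data were known when it was made. All 9 were counted in all 20 libraries and passed the expression filter in all 6 fits described here, so each has a value and a test throughout.

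Complement is a cascade of proteins that tags surfaces for removal. In the classical pathway C1q, built from A, B and C chains, recognises a target, and its partner proteases cut C4 and C2 to form the enzyme that cleaves C3; in the alternative pathway factor B joins C3b to form another such enzyme. Factor I, encoded by Cfi, breaks down C3b and C4b, and the C1 inhibitor, encoded by Serping1, blocks the C1 proteases. In the retina microglia are a known source of C1q, which is linked with the pruning of synapses, and glia and the pigment epithelium are known to make other components.

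All mice were wild-type C57BL/6J, an inbred strain, and 1 retina per mouse was sequenced after selection of polyadenylated RNA. Young control mice (n = 4) were 119 days old, and young NACET mice (n = 6) were 129 days old in 4 cases and 119 days in 2 by their titles, of which 1 carries a batch tag of 129 days. Old control mice (n = 4) were 668 days old, whereas old NACET mice (n = 6) were 574, 581 or 668 days old, 2 of each. No batch tag was shared by young and old mice, so age and batch cannot be told apart in any comparison of age. NACET (N-acetyl-L-cysteine ethyl ester), an ester of N-acetylcysteine that enters cells and releases cysteine, was dissolved in the drinking water so that mice took up a daily dose of 50 mg/kg over 5 days, and controls drank water without it.

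Libraries held 17.7 to 31.1 M counts in genes (M, 1e+06). The labels gave 2 females among the young controls and 2 among the young NACET mice, while the study's methods describe males. In 1 library the counts did not match the label: old control replicate 4, labelled male, had 59555 counts of Xist, a transcript of the inactive X chromosome, and 1 count over the Y-linked genes. Marker genes set several libraries apart. Old control replicate 2 had 446 CPM (counts per 1e+06 gene counts of the library) summed over 8 corneal and conjunctival genes, young NACET replicate 3 had 412 CPM over 16 interferon response genes, and old NACET replicate 1 had 514 CPM over 10 reactive glia genes. These 3 libraries were also left out together in alternative fits. The corneal and conjunctival genes also reached 430 CPM in young NACET replicate 4 and 217 and 214 CPM in young NACET replicates 3 and 5, against 3.43 to 55.9 CPM in the other 16 libraries. Young control replicate 4 had 197 CPM over 7 genes of the retinal pigment epithelium and 48.6 CPM over 6 genes of connective tissue, against 30.4 to 46.6 CPM and 6.14 to 8.97 CPM in the other 3 young controls. Rod photoreceptor markers were abundant in every library, with 61914 to 94368 CPM over 7 genes, and none of the marker lists had a gene at 0 in all libraries.

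The genes lie on 4 chromosomes of the mm9 assembly (GENCODE). The 3 C1q genes stand side by side on the minus strand of chromosome 4: C1qb at 136436044 to 136442102, C1qc at 136445719 to 136448980 and C1qa at 136451832 to 136454718. On the minus strand of chromosome 17 lie C4b at 34865325 to 34880827, Cfb at 34993319 to 34999463, C2 at 34999549 to 35035397 and C3 at 57343397 to 57367559. Cfi lies on the plus strand of chromosome 3 at 129539655 to 129578246, and Serping1 on the minus strand of chromosome 2 at 84605544 to 84615601. Reads were counted over exons without regard to strand. On this strand C2 ends 85 bases before Cfb starts. The annotation holds a readthrough gene, Gm20547, which shares 2246 of 2825 exon bases of Cfb and 1656 of 4059 of C2. Another 161 exon bases of C2 overlap Zbtb12 on the other strand, so counts of C2 and Cfb are less certain than those of members without such an overlap. C4b has a near copy, C4a: 33% of all 50-base windows of C4b exons also occur in C4a exons. Reads with more than 1 alignment had been set aside before counting, so C4b counts may miss some of its reads.

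For 3 members, 2 of them C1q chains, a RefSeq promoter (GRCm38.p6) was at hand, and all 3 are shown. The 250 bases before the start of each gene are printed 5′ to 3′ on the gene's strand, for C1qb at chr4:136886201-136886450, C1qc at chr4:136892915-136893164 and C3 at chr17:57228137-57228386, all on the minus strand. Capitals mark matches to searched motifs.
C1qb: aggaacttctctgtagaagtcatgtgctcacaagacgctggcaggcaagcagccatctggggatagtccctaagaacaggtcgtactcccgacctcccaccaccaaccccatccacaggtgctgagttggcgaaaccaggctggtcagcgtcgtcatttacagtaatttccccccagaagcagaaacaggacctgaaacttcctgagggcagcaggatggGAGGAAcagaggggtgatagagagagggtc
C1qc: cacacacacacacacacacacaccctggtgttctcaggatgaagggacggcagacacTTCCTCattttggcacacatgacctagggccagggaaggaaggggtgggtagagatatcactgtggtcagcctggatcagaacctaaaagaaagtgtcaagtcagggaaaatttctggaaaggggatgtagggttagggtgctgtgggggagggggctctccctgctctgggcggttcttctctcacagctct
C3: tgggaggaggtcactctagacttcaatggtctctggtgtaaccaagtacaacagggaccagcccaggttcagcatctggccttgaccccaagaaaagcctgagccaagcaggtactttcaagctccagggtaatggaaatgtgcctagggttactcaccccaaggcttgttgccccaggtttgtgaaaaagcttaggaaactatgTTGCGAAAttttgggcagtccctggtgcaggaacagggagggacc
The search covered 4 motifs on both strands over a window that also held 50 bases after the start: the STAT motif TTCNNNGAA, the interferon-stimulated response element, the PU.1 motif GAGGAA and the C/EBP motif TTGCNNAA. Both C1q promoters held the PU.1 letters, at base -30 from the start in C1qb and, on the opposite strand as TTCCTC, at base -193 in C1qc. PU.1 is a transcription factor of myeloid cells such as microglia. The C3 promoter held the C/EBP letters at base -45. Neither the STAT nor the interferon letters were found in the 3 windows. Over 32851 promoters of the same length, 28.3% held the PU.1 letters, 10.8% the C/EBP letters, 8.3% the STAT letters and 3.44% the interferon letters, so the PU.1 match is a common one. C1qa, C2, C4b, Cfb, Cfi and Serping1 had no entry.

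Levels were compared between genes as CPM per kb of exon. C1qb (5.15 ± 1.21, mean ± SD over 20 libraries) and C1qa (4.93 ± 1.5) had the highest values, followed by Serping1 (4.06 ± 1.22), C4b (3.20 ± 1.64) and C1qc (2.45 ± 0.688). The other 4 members were lower, with Cfi at 0.494 ± 0.200, C3 at 0.422 ± 0.170, C2 at 0.370 ± 0.102 and Cfb at 0.317 ± 0.0718 CPM per kb. The values of C2 and Cfb are less certain, because both share exon bases with Gm20547 and the annotation used for counting is not known. That of C4b may be too low, because its full exon length was used although 33% of its 50-base windows also occur in C4a. Its place in this order is therefore uncertain. The step from C1qc to Cfi was the 1 place in this order where the upper gene exceeded the lower in 20 of 20 libraries. Between the other neighbours the upper gene was higher in 10 to 17 of 20 libraries, and C3 exceeded C2 in 10 of 20, so their order does not hold library by library. Counts per library ran from 111 to 948 for C4b and from 61 to 197 for C1qa, but from 11 to 29 for Cfb and from 2 to 39 for Cfi. The precision followed: 948 counts gave 45.2 CPM with a 95% exact binomial interval of 42.4 to 48.2, and 2 counts gave 0.113 CPM with one of 0.0137 to 0.408. These intervals cover counting error only.

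**Figure D1:**
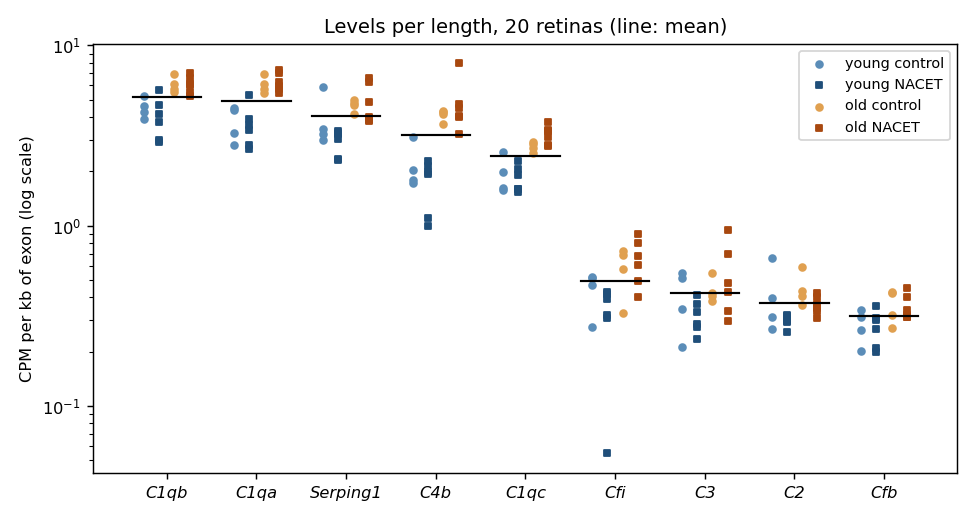
Levels of the 9 complement genes as CPM per kb of exon (log axis) in each of 20 retinas, with points by group and a line at the mean over all libraries. C1q chains, Serping1 and C4b lie between 2.45 and 5.15 on average, and Cfi, C3, C2 and Cfb between 0.317 and 0.494, with 1 low Cfi value in a young NACET library.

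Among the 3 C1q chains, C1qb made up 41.5% ± 3.66 of the C1q signal per kb, C1qa 39.0% ± 3.71 and C1qc 19.5% ± 2.1 (SD, n = 20). The lower C1qc share largely follows its exon length of 1931 bases, against 1040 for C1qa and 1088 for C1qb. Before division by length the means were nearer, at 5.61 CPM for C1qb, 5.13 for C1qa and 4.73 for C1qc. The annotation used for counting is not known, so the shares depend on the lengths assumed. Group means ran from 39.1% in old NACET mice to 44.5% in young controls for C1qb, and from 18.5% in old controls to 20.6% in old NACET mice for C1qc. Of the counts of C4a and C4b together, C4b took 85.3% ± 4.31 in young controls, 78.6% ± 3.77 in young NACET mice, 90.1% ± 1.40 in old controls and 88.5% ± 2.62 in old NACET mice. The mean C4b share was lowest in young NACET mice, whose libraries (73.6% to 82.2%) overlapped young controls (80.1% to 89.6%), and old control libraries lay between 89.3% and 92.2%. No test was run on these shares.

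The first comparison asked how complement transcripts differ with age in untreated retina, where age and batch tag cannot be told apart. C4b rose in old control retinas, 1.83-fold, and was the 1 member of 9 to pass an adjusted p under 0.05 in edgeR's quasi-likelihood test, where 1.42% of 16484 tested genes passed in either direction and 1.09% passed as higher. C1qa, C1qb and C1qc had higher values in old controls as well, without passing. All 9 estimates were above 0, with a median log2 change of 0.31 against -0.0068 over all tested genes, and 4 had an unadjusted p under 0.05 (C1qa, C1qb, C1qc and C4b), as had 2687 of all 16484 tested genes. Every old control library was above every young control library for C1qa, C1qb and C4b, a pattern found in 9.45% of tested genes.

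C4b, which supplies a part of the C3 convertase of the classical pathway, measured 10.3, 11.6, 9.84 and 17.6 CPM in the young controls. In the old controls it measured 24.4, 24.6, 20.7 and 23.6 CPM. The groups did not overlap, and young control replicate 4 was the highest of the young. The log2 change was 0.87 ± 0.15 (SE, adjusted p = 0.0169), and it grew to 1.09 without that library (adjusted p = 0.000391). Its call was lost without young control replicate 2 (adjusted p = 0.0557), old control replicate 2 (0.0510) or old control replicate 4 (0.0586), with estimates of 0.84 to 0.86, and in a fit of all 4 groups (log2 0.87, adjusted p = 0.0555).

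C1qa, the A chain of C1q, measured 4.59, 3.38, 2.92 and 4.65 CPM in young controls and 7.18, 6.34, 5.97 and 5.69 CPM in old controls. The old libraries lay above the young ones without overlap. The log2 difference was 0.65 ± 0.16 (adjusted p = 0.0753), and it passed in DESeq2 (adjusted p = 0.0127) and without young control replicate 1 (log2 0.75, adjusted p = 0.0342). C1qb, the B chain, measured 5.05, 4.67, 4.22 and 5.67 CPM in young controls and 6.04, 7.53, 6.24 and 6.64 CPM in old controls. These groups did not overlap either, and the log2 difference was 0.39 ± 0.13 (adjusted p = 0.164). C1qc, the C chain, measured 3.14, 3.83, 3.05 and 4.98 CPM in young controls and 5.66, 4.89, 5.20 and 5.48 CPM in old controls. Young control replicate 4 reached into the old range, and the log2 difference was 0.45 ± 0.15 (adjusted p = 0.175).

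Serping1 measured 7.52, 8.01, 6.92 and 13.6 CPM in young controls and 11.2, 9.65, 11.5 and 10.9 CPM in old controls. The 3 lower young libraries were all under the old ones, and young control replicate 4 was above them all. Its log2 difference was 0.21, with a 95% interval of -0.18 to 0.61, and without young control replicate 4 it was 0.47 (adjusted p = 0.0752). The other members spread widely in the few counts they had. C2 measured 1.08 to 2.70 CPM in young and 1.48 to 2.39 CPM in old controls, and C3 1.09 to 2.79 CPM in young and 1.96 to 2.79 CPM in old controls. For both genes the groups overlapped, with log2 intervals of -0.50 to 0.67 for C2 and -0.51 to 0.65 for C3. Without young control replicate 4 the log2 difference of C2 went from 0.08 to 0.40 and that of C3 from 0.07 to 0.25, and neither passed. When each of the 8 libraries was omitted in turn, each gene had an estimate below 0 in 3 cases (lowest -0.06 for C2 and -0.14 for C3). Cfb, the protease of the alternative pathway, measured 0.567 to 0.966 and 0.766 to 1.2 CPM (interval -0.21 to 0.82), and Cfi 0.566 to 1.08 and 0.676 to 1.49 CPM (interval -0.33 to 0.95). Differences within these intervals in C2, C3, Cfb, Cfi and Serping1 are not excluded by the data, and no limit of detection was computed.

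**Figure D2:**
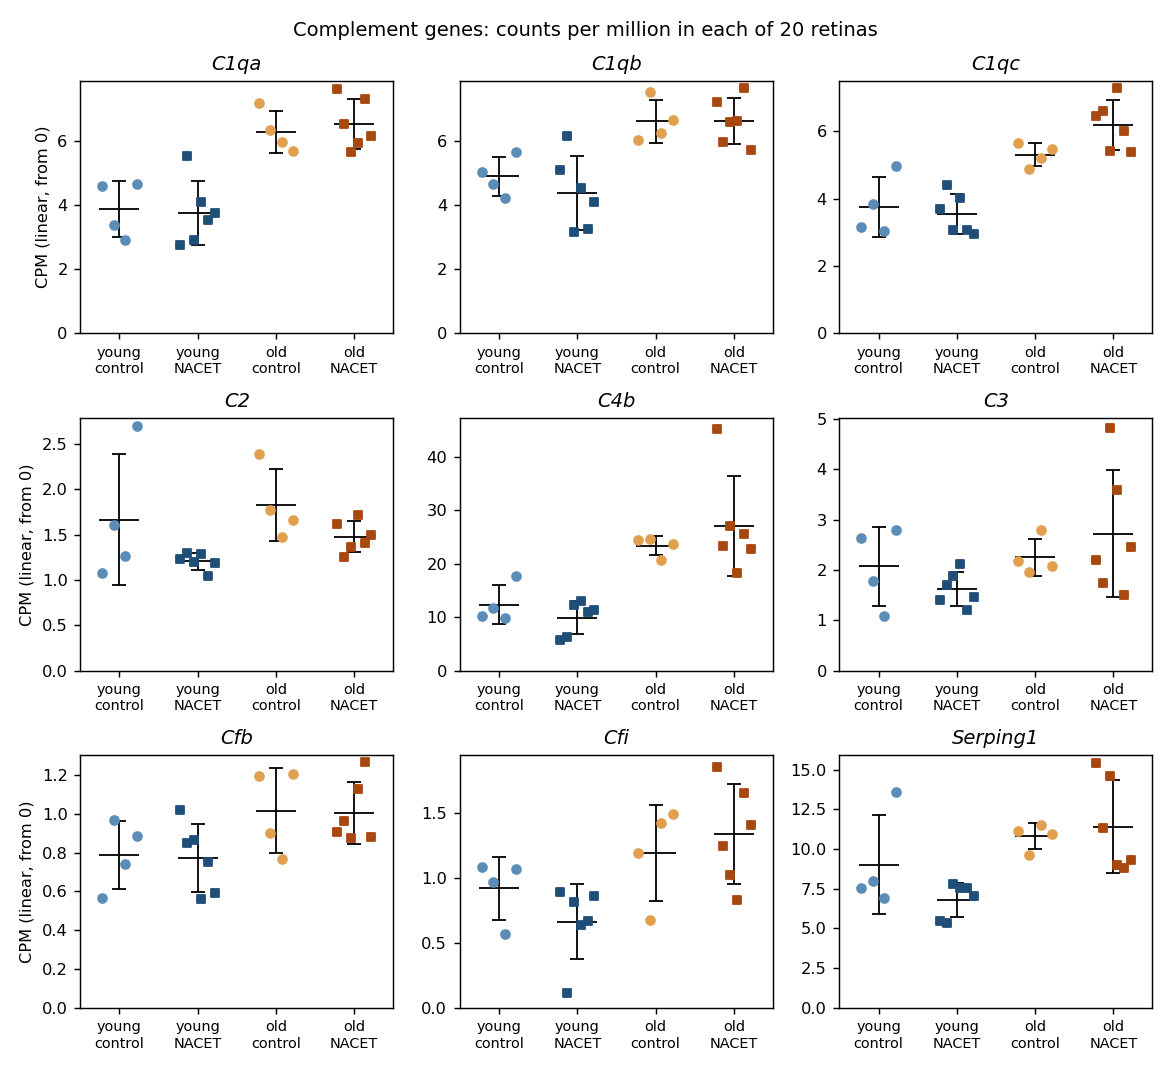
CPM of the 9 complement genes in each of 20 retinas by group on linear axes that start at 0, with points for libraries, a bar for the group mean and whiskers for the SD. C4b lay between 5.68 and 17.6 CPM in young and between 18.3 and 45.2 CPM in old libraries, and C1qa between 2.76 and 5.54 and between 5.66 and 7.63 CPM.

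The same question was put to treated mice, which share no library with the controls. In old NACET against young NACET retinas 5 members rose: C1qa, C1qb, C1qc, C4b and Serping1. Of 16276 tested genes 4.88% passed in either direction and 2.24% as higher. All 9 estimates were above 0, with a median of 0.70 against -0.0013 over all tested genes, and 7 had an unadjusted p under 0.05, as had 3438 of all 16276 tested genes. Every old NACET library was above every young NACET library for C1qa, C1qc, C4b and Serping1, a pattern seen in 3.29% of tested genes. The labels gave 2 females among the young NACET mice and males only among the old.

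C4b ranged from 5.68 CPM (median 11.1) to 12.9 CPM in the 6 young NACET libraries. In the 6 old NACET libraries it ranged from 18.3 CPM (median 24.4) to 45.2 CPM. The highest value was that of old NACET replicate 1, and the other 5 were at most 27.1 CPM. C4b was 2.65-fold higher in old mice (log2 1.41 ± 0.21, adjusted p = 0.00081), and without old NACET replicate 1 the log2 change was 1.2 (adjusted p = 0.000522). In that library the reactive glia list summed to 514 CPM, against 238 to 267 CPM in the other 5 old NACET libraries. The part of reactive glia in the C4b level was not tested.

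C1qa ranged from 2.76 CPM (median 3.66) to 5.54 CPM in young NACET mice and from 5.66 CPM (median 6.35) to 7.63 CPM in old NACET mice. The young library at the top, young NACET replicate 2, was just below the lowest old one. The log2 change was 0.75 ± 0.14 (adjusted p = 0.00592). C1qc ranged from 2.96 CPM (median 3.39) to 4.41 CPM in young NACET mice and from 5.37 CPM (median 6.22) to 7.27 CPM in old NACET mice. The groups did not overlap, and the log2 change was 0.76 ± 0.12 (adjusted p = 0.00119). C1qb ranged from 3.17 CPM (median 4.31) to 6.16 CPM in young NACET mice and from 5.72 CPM (median 6.61) to 7.65 CPM in old NACET mice. These groups overlapped through young NACET replicate 2, and the log2 change was 0.55 ± 0.15 (adjusted p = 0.0465). The C1qb call was lost in 9 of 12 fits that each left out 1 library, namely any of young NACET replicates 3 to 6 and old NACET replicates 1 to 5, with adjusted p-values of 0.0678 to 0.105 and log2 changes of 0.46 to 0.57, and without the 3 libraries left out together (0.118). It was also lost with labelled sex as a covariate (log2 0.44, adjusted p = 0.115) and among labelled males alone (log2 0.43, adjusted p = 0.134).

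Serping1 ranged from 5.37 CPM (median 7.30) to 7.79 CPM in young NACET mice and from 8.82 CPM (median 10.3) to 15.4 CPM in old NACET mice. The groups did not overlap, with old NACET replicates 1 and 3 highest at 15.4 and 14.6 CPM. The log2 change was 0.70 ± 0.15 (adjusted p = 0.0113), and it did not pass without the 668-day old NACET mice (log2 0.57, adjusted p = 0.0764). Cfi ranged from 0.113 CPM (median 0.742) to 0.891 CPM in young NACET mice and from 0.835 CPM (median 1.33) to 1.86 CPM in old NACET mice. Young NACET replicate 2 held 2 counts of Cfi, and the other 5 held 16 to 21. The log2 difference was 0.94 (interval 0.33 to 1.54, adjusted p = 0.0699), and DESeq2 called it (adjusted p = 0.0318).

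C3, the hub on which all pathways converge, ranged from 1.21 CPM (median 1.57) to 2.12 CPM in young NACET mice and from 1.51 CPM (median 2.33) to 4.83 CPM in old NACET mice. The highest old values, 4.83 and 3.58 CPM, belonged to the 2 mice of 581 days, and the other 4 lay between 1.51 and 2.46 CPM. The log2 difference was 0.70 (interval 0.16 to 1.23, adjusted p = 0.122). C2 ranged from 1.04 to 1.30 CPM in young and from 1.25 to 1.72 CPM in old NACET mice, and Cfb from 0.561 to 1.02 and from 0.878 to 1.27 CPM. Both overlapped between the groups, with log2 intervals of -0.04 to 0.53 for C2 and -0.08 to 0.73 for Cfb.

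With all 20 libraries and treatment as a covariate, the same 5 members rose with age, where 12.8% of 16993 tested genes passed in either direction and 6.42% as higher. C4b changed most, by 2.28-fold (log2 1.19 ± 0.16, adjusted p = 3.4e-05). The C1q chains changed by log2 0.71 ± 0.11 for C1qa (adjusted p = 0.000176), 0.48 ± 0.11 for C1qb (0.00453) and 0.63 ± 0.10 for C1qc (0.000146). Serping1 changed by 0.50 ± 0.13 (adjusted p = 0.015). Each of these calls was kept in all 20 fits that left out 1 library, in a fit with sex by Xist as a covariate and without the 3 libraries left out together. The remaining estimates were Cfi 0.68 (interval 0.20 to 1.16, adjusted p = 0.0557), C3 0.44 (0.02 to 0.87, 0.163), Cfb 0.32 (0.02 to 0.61, 0.147) and C2 0.17 (-0.10 to 0.45, 0.431). The 10 old libraries were all above the 10 young ones for C1qa and C4b, which 1.09% of tested genes showed. Cfi passed without young control replicate 1 (adjusted p = 0.0486), old control replicate 2 (0.0213) or old NACET replicate 4 (0.0475), and in DESeq2 (0.0252). Because this fit reuses the libraries of both age comparisons, it is no further evidence beside them.

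In bulk tissue fewer cells of a type and less RNA per cell cannot be told apart. Summed over the 3 chains, C1q measured 12.5 ± 2.13 CPM in young control, 11.7 ± 2.48 in young NACET, 18.2 ± 0.718 in old control and 19.3 ± 1.66 in old NACET libraries (SD). The 14 microglial markers, which do not include C1q, summed to 55.1 to 66.7 CPM in young controls and 53.5 to 71.2 in young NACET mice. They summed to 80.1 to 90.8 CPM in old controls and 74.0 to 99.1 in old NACET mice. In the fit over both treatments 9 of 14 passed as higher, where 6.42% of all tested genes did. Between control ages 2 of 14 passed as higher (1.09% of all tested genes), and between NACET ages 6 of 13 tested (2.24%). For each 100 CPM of these markers there were 20.2 ± 1.93 CPM of C1q in young controls, 18.6 ± 2.93 in young NACET mice, 21.3 ± 0.459 in old controls and 22.7 ± 1.15 in old NACET mice (SD). C1q and the microglial markers were thus both higher in old libraries, and the part of microglial number in the C1q values was not tested. The 11 markers of other leukocytes summed to 5.42 to 9.54 CPM over all libraries, with 7 of them under 0.1 CPM on average: Ccr2, S100a8, S100a9, Ly6g, Cd3e, Ms4a1 and Nkg7. Reactive glia markers summed to 203 to 232 CPM in young controls and 250 to 273 CPM in old controls, and 1 of 10 passed as higher there. They summed to 186 to 232 CPM in young and 238 to 514 CPM in old NACET mice, with 4 of 9 tested passing as higher. In the fit over both treatments 7 of 10 passed as higher. The 16 interferon response genes summed to 188 to 210 CPM in young and 233 to 281 CPM in old controls, but to 176 to 412 CPM in young and 234 to 283 CPM in old NACET mice, which overlap. None of the 16 passed in edgeR in either age comparison (11 higher at an unadjusted p under 0.05 in controls and 2 in NACET mice), and 2 passed as higher over both treatments. Rod markers averaged 84266 CPM in young and 76844 CPM in old controls and 80922 and 68418 CPM in young and old NACET mice. Over both treatments 3 of 7 passed as lower, as did 1082 of all 16993 tested genes. Between control ages 0 of 7 passed, and between NACET ages 1 of 7 passed as lower. Between NACET ages the 7 markers of the pigment epithelium averaged 101 CPM in young and 57.1 CPM in old mice. Of their estimates 0 of 7 were above 0, and 2 of 7 passed as lower, as did 430 of all 16276 tested genes. The corneal and conjunctival list averaged 155 and 11.3 CPM, with 0 of 7 tested estimates above 0 and 5 of 7 passing as lower. Between control ages both lists went the other way, from 77.0 to 112 CPM and from 13.2 to 134 CPM, with no gene called. Old control replicate 2 alone had 446 CPM of the corneal and conjunctival list. The part of these cell types in the differences of the members was not tested.

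**Figure D3:**
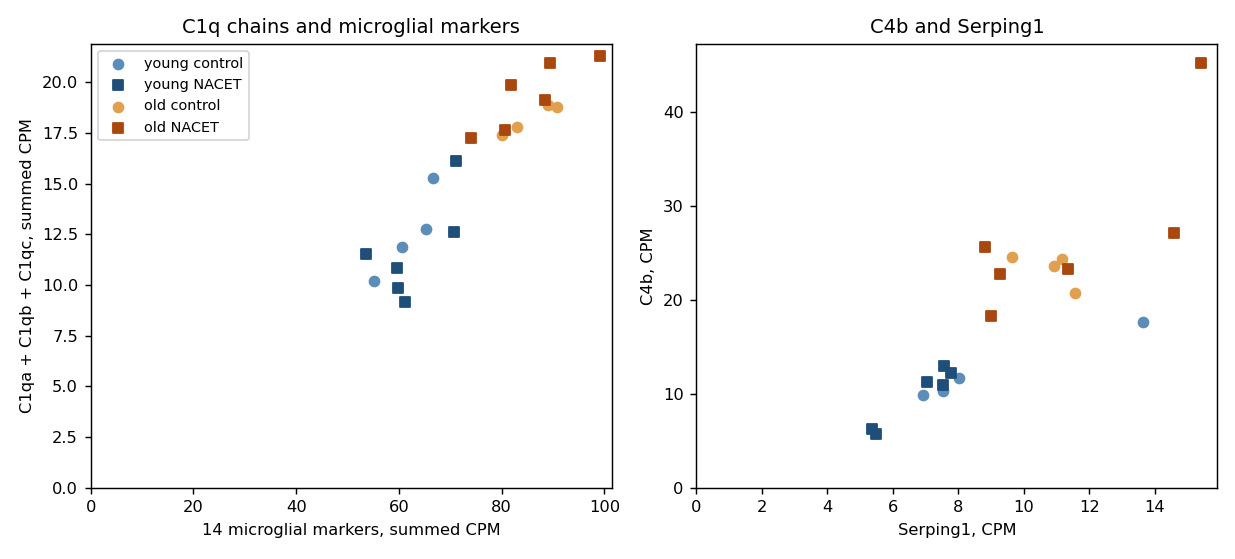
Left, summed CPM of the 3 C1q chains against the summed CPM of 14 microglial markers, and right, C4b against Serping1 (CPM), with 1 point for each of 20 retinas and marks by group. Old libraries lie at 74.0 to 99.1 CPM of microglial markers and young ones at 53.5 to 71.2, and old NACET replicate 1 is at the top right of both plots, with 45.2 CPM of C4b and 15.4 CPM of Serping1.

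A further comparison asked whether 5 days of NACET changed these transcripts in old retina. None of the 9 members passed in edgeR, where 0.543% of 16562 tested genes did, and DESeq2 called none of them. Of the members 1, C1qc, had an unadjusted p under 0.05, as had 2393 of all tested genes. This comparison shares its 4 old controls with the one between control ages, so the values of the same libraries stand in both. C1qc was at 4.89 to 5.66 CPM in old controls and 5.37 to 7.27 CPM in old NACET mice, a log2 difference of 0.21 (interval 0.00 to 0.43, adjusted p = 0.345). For C1qa and C1qb the intervals were -0.16 to 0.26 and -0.23 to 0.21. C4b differed by log2 0.20 (interval -0.19 to 0.59), and Serping1 by 0.07 (-0.26 to 0.41). For C1qa, C1qb, C1qc and Serping1 the bounds lay within 0.43 of 0 on the log2 scale. The intervals of C2 (-0.64 to 0.03), C3 (-0.32 to 0.87), Cfb (-0.44 to 0.38) and Cfi (-0.37 to 0.73) were wider. Among 668-day mice alone, 4 controls and 2 NACET, C4b differed by log2 0.54 ± 0.20 (SE, adjusted p = 0.546), and no member passed. That C4b estimate rests on old NACET replicate 1 at 45.2 CPM. Old NACET replicate 2, at 23.2 CPM, lay within the old control range of 20.7 to 24.6 CPM.

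In young retina all 9 estimates for NACET were below 0, with a median of -0.34 against -0.0045 over all tested genes. None passed, as was the case for 0% of the 16588 genes tested, whereas 724 genes had an unadjusted p below 0.05, and DESeq2 called 0 genes. Serping1 alone among the members had an unadjusted p under 0.05, with a log2 difference of -0.42 (interval -0.79 to -0.04). C2 differed by -0.47 (interval -0.97 to 0.02), Cfi by -0.45 (-1.21 to 0.30), C3 by -0.36 (-0.89 to 0.17) and C4b by -0.34 (-0.80 to 0.13). The C1q chains were nearer 0, at -0.06 for C1qa, -0.17 for C1qb and -0.09 for C1qc, each with an interval that spans 0. Young control replicate 4, a mouse labelled female, had the highest value among young controls in C1qa, C1qb, C1qc, C2, C3, C4b and Serping1, and the highest sums of pigment epithelium and connective tissue markers given above, whose part was not tested. Without it the estimates of C1qa (0.04), C1qc (0.07) and Cfb (0.0053) were above 0, and those of Serping1 (-0.15), C2 (-0.15), C3 (-0.18) and C4b (-0.12) were nearer 0. C1qa and Cfb also had estimates above 0 without 1 of 3 other libraries each, up to 0.05. These 4 young controls also serve in the comparison of control ages.

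**Figure D4:**
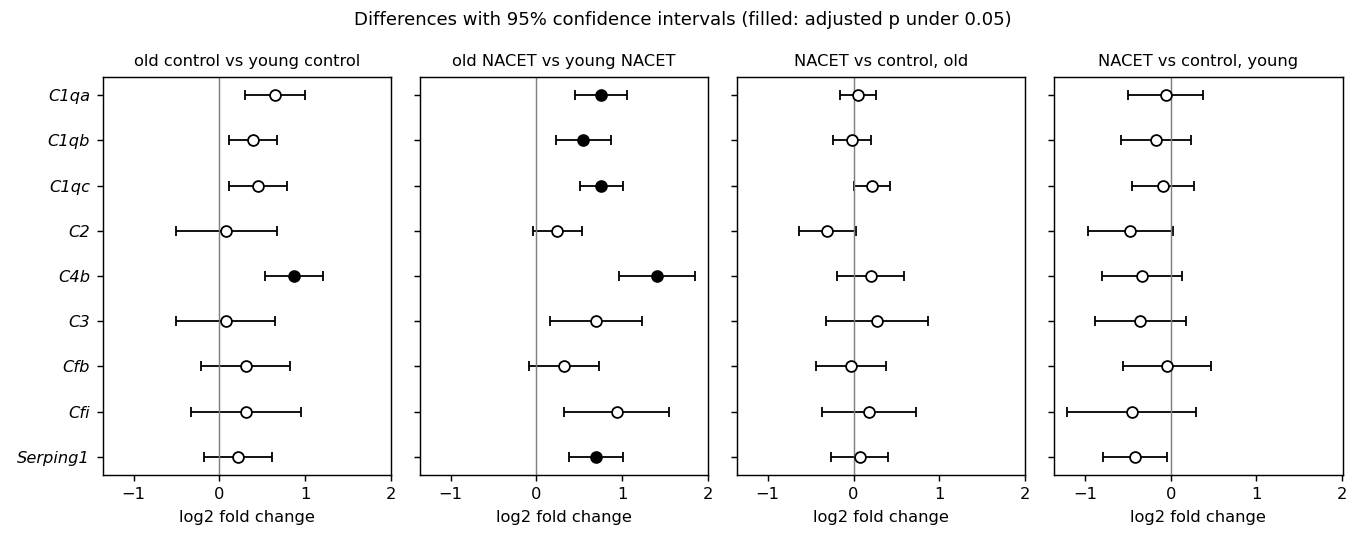
Log2 fold changes of the 9 complement genes with 95% confidence intervals in 4 comparisons, with filled circles for an adjusted p under 0.05. In the comparisons of age all estimates lie above 0, with C4b at 0.87 in controls and 1.41 in NACET mice, and in the comparisons of NACET no circle is filled.

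Whether NACET acted differently in old and young mice was tested as an interaction over all 20 libraries. No member passed, and 0% of 16993 tested genes did, with 1052 at an unadjusted p under 0.05 and 86 called by DESeq2, none of them a member. All 9 estimates were above 0, with a median of 0.30 against 0.0065 over all tested genes and no unadjusted p under 0.05. Without young control replicate 4 the estimates of C2 (-0.16) and Cfb (-0.03) were below 0, and Cfb was below 0 in 7 other fits that left out 1 library. The largest were C3 at 0.63 (interval -0.22 to 1.47), Cfi at 0.62 (-0.32 to 1.57), C4b at 0.53 (-0.12 to 1.18) and Serping1 at 0.49 (-0.04 to 1.02). The age difference of these genes was thus not shown to differ between control and NACET mice, although C4b and Serping1 had larger estimates among NACET mice.

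Within groups, libraries varied together in 1 of 36 pairs of members. C4b and Serping1 correlated over the 20 libraries after each group's mean was removed, with Pearson's r = 0.79 (permutation p = 0.00089, adjusted 0.032) and Spearman's rho = 0.81 (permutation p = 0.00092, adjusted 0.0331). Without the 2 libraries farthest from the median of C4b, r was 0.76. The correlation was 0.96 among the 6 young NACET mice and 0.77 among the 6 old NACET mice. The pair no longer passed without any 1 of young control replicate 4, young NACET replicate 2, old NACET replicate 1 and old NACET replicate 3, each of which left 0 pairs, nor without the 3 libraries left out together. The next pairs were C1qc with C2 (r = 0.67, permutation p = 0.00428, adjusted 0.077), C1qb with C1qc (0.61, 0.0158, 0.189) and C1qa with C1qb (0.58, 0.0406, 0.365). Without the 2 farthest libraries their r fell to 0.48, 0.43 and 0.33.

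The genes whose mouse-to-mouse pattern was most like that of each member were taken from 14979 genes with at least 1 CPM, by r over the 20 group-centred libraries. These r are the highest of many and carry no test. Closest to C4b were Slc35f3 (0.85), Cald1 (0.85) and Trpm3 (0.82), and closest to Serping1 were Rhoj (0.84), Wnt9a (0.84) and Colec12 (0.81). For C1qa they were Flot1 (0.87), Lin7b (0.85) and Tmem51 (0.85), for C1qb Eif3f (0.79), Aldoart2 (0.79) and Cap1 (0.78), and for C1qc Gm6190 (0.80), Nbl1 (0.77) and Exoc8 (0.76). For C2 they were Crtap (0.88), Sepn1 (0.85) and Bmp7 (0.81), for C3 Hspa9-ps1 (0.82), Nbn (0.80) and Gm11993 (0.75), for Cfb Aco1 (0.77), Ptar1 (0.76) and Ovca2 (0.75), and for Cfi Thap6 (0.86), Tmem196 (0.83) and 3110083C13Rik (0.81). No member was among the 3 closest genes of another, but Cfb, at 0.894 CPM on average, was not among the genes searched.

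A list of 42 other complement genes set the members beside the rest of the pathway. Of these, 11 had at least 1 CPM on average, 27 had less, and C6, C9, Fcnb and Mbl1 had 0 counts in all libraries, which allows up to 0.00688 CPM over all libraries together. The most abundant were regulators. Vtn, which restrains the terminal complex, measured 1004 CPM, and Clu, a chaperone with the same role, 424 CPM. Cd59a, which blocks the terminal pore, measured 52.1 CPM, Cfp, the stabiliser of the alternative convertase, 17.5 CPM, and Csmd1, a membrane inhibitor, 15.5 CPM. Between control ages 0 of 20 tested genes of this list passed, with 2 higher and 1 lower at an unadjusted p under 0.05, and DESeq2 called 0 of them. Between NACET ages 0 of 16 passed in edgeR and in DESeq2, with 6 higher and 1 lower at an unadjusted p under 0.05.

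Over both treatments 4 of 20 tested genes of the list passed, 3 as higher and 1 as lower, where 12.8% of all tested genes passed. C3ar1, the receptor of the C3 cleavage product C3a, rose from 0.349 ± 0.146 CPM in young to 0.615 ± 0.177 CPM in old mice (SD, n = 10, log2 0.76, adjusted p = 0.017). It had 1 to 24 counts per library and did not pass the expression filter between NACET ages or between the young groups. It was tested here mainly through old libraries, with 0.581 to 0.930 CPM in old controls against at most 0.377 CPM in young NACET mice. The call of C3ar1 is therefore no independent support for a rise. Itgb2, the beta chain of complement receptors on microglia and other leukocytes, rose from 0.692 ± 0.199 to 1.09 ± 0.314 CPM (log2 0.63, adjusted p = 0.0263). Cd46, a cofactor of factor I, rose from 2.27 ± 0.569 to 3.11 ± 0.513 CPM (log2 0.40, adjusted p = 0.0425). Vtn fell from 1051 ± 87.0 to 957 ± 72.0 CPM, a log2 change of -0.19 (adjusted p = 0.0441). The call of C3ar1 was kept in all 20 fits that left out 1 library, while Itgb2 lost it without old NACET replicate 1 (adjusted p = 0.0567) or old control replicate 2 (0.0569), and Cd46 and Vtn each lost it in 13 of the 20, with adjusted p-values up to 0.0834 and 0.0865 (both without old NACET replicate 1). Itgb2, Cd46 and Vtn also lost the call with labelled sex as a covariate (adjusted p = 0.0770, 0.0631 and 0.0740). C4a, the near copy of C4b, had log2 0.30 (interval 0.09 to 0.51, adjusted p = 0.0518), a smaller estimate than the 1.19 of C4b.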

How the data were processed

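Retinal RNA of 20 mice was sequenced, with 1 library per mouse, and samples were grouped by GEO's labels. The deposited values are raw counts per gene, not normalized by the authors. According to the study's methods and the submitters' processing notes, TruSeq libraries were read as single ends on a NextSeq instrument, aligned to mm9 with TopHat 2.1.0 and counted over exons with HTSeq 0.11.2 without strand. The annotation used for counting is not given in the sources used here. Reads set aside in the files were 14.1% to 20.5% outside genes, 1.09% to 1.20% ambiguous and 6.65% to 7.92% not unique. A row that names no gene, with 0.000711% to 0.00157% of counts, was left out. Libraries of a group differed by more than counting noise in all 42 pairs (chi-square per degree of freedom 2.52 to 32.2).

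Groups were compared in R 4.3.3 by edgeR 4.0.16 (normalization by TMM, default expression filter, quasi-likelihood test, two-sided, Benjamini-Hochberg adjustment over all tested genes, called at an adjusted p under 0.05). The study used DESeq2; version 1.42.0 was run here as an alternative. Each pair of groups was fitted on its own, and the interaction and the age difference over both treatments on all 20 libraries. CPM values use total gene counts; correlations use TMM-normalized log2 CPM with a prior count of 1, centred on group means, and 100000 permutations of libraries within groups (20000 in fits without 1 library). The method was tested on simulated data. Gene positions come from GENCODE for mm9, and promoters from RefSeq.

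The 9 members and all lists were chosen with earlier results of these data known. Named genes were all members, other complement genes that were called or among the 5 with the highest CPM, and for each member the 3 genes with the highest correlation; marker lists are given by counts and sums. Alternatives were other normalization, filters, DESeq2, a replicate block, sex, males only, a fit of all 4 groups, age cohorts and leaving out libraries. Sex by Xist, libraries without Xist, and leaving out old control replicate 2, young NACET replicate 3 and old NACET replicate 1 together in some fits were added after seeing the data. A result for 1 other complement gene under alternative settings is not reported here.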

Additional observations from a re-analysis of the deposited data

Results flagged for a closer look

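In 36 groups of 4 or 6 libraries (9 members in 4 groups), 3 values lay far from the others of their group by Dixon's ratio, where chance flags about 1 in 20 groups. C4b was 45.2 CPM in old NACET replicate 1, against 18.3 to 27.1 CPM in the other 5. Cfi was 0.113 CPM in young NACET replicate 2, against 0.641 to 0.891 CPM in the others, and rests on 2 counts. Serping1 was 13.6 CPM in young control replicate 4, against 6.92 to 8.01 CPM in the other 3.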

How the results depend on the processing

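Over 142 alternative fits, 1273 member values were recomputed. No value called in either fit changed sign; 53 uncalled ones did. Calls were lost in 20 cases and gained in 9. In controls, 1 member was called with age against 2 in DESeq2, 0 in a fit of all 4 groups, 0 without the 3 libraries left out together, and 0 to 2 when 1 library was left out. In NACET mice 5 were called, 3 without the 668-day mice (C1qa, C1qc and C4b). For age over both treatments and for the NACET effect at either age, all alternatives stayed within 1.5 times the count of members, as did the interaction. Of the other complement genes, 1 was called in controls with no filter (Itgax), and over both treatments 2 with males only, 2 without the 3 libraries left out together, and 2 to 6 when 1 library was left out, against 4. Correlated pairs were 1, but 2 with CPM by total gene counts, 0 without the 3 libraries left out together and 0 to 2 without 1 library.

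Same-numbered libraries of different groups correlated by -0.0856 to 0.116 between control ages and by -0.151 to 0.0762 between NACET ages, so they share only a number. With a replicate block the members called were 1 in controls, 4 in NACET mice, 5 over both treatments, and 0 in the other comparisons; C1qb lost its call (adjusted p = 0.0788). Depth limits C2, C3, Cfb and Cfi most.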
